A study of Homo sapiens with 6 samples.

Results

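The plasminogen activator system was described here through 10 genes: the activators PLAU and PLAT, the receptor PLAUR, the surface cofactor ANXA2, the inhibitors SERPINE2, SERPINB2 and SERPINB8, and, from the start of coagulation, F3 with its inhibitors TFPI and TFPI2. Its members were the probe sets that the platform's table pairs with exactly 1 of these symbols, 22 of the 41091 probe sets with 1 gene symbol on the array. They covered 9 of the 10 genes. No probe set was paired with SERPINB2 in the table used, so that gene was not analysed here. The system was compared between cybrids, cells made by fusing an enucleated mitochondrial donor with a cell that lacks mitochondrial DNA. The 10A/143B cybrids carried mitochondria of MCF10A, a non-tumorigenic line of breast epithelium, and the 468/143B cybrids those of MDA-MB-468, a breast cancer line. Both had the nucleus of 143B TK-, an osteosarcoma line without thymidine kinase, in its p0 form, and both had been selected in bromodeoxyuridine without uridine after the donors were enucleated with actinomycin D. RNA of each cybrid was taken in triplicate and measured on 3 arrays. The labels do not say whether a cybrid was 1 clone or a pool, nor whether the 3 extractions came from separate cultures, so a p-value here reflects array-to-array spread that may be technical.

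Plasminogen activators are serine proteases that cut the inactive precursor plasminogen to plasmin, which breaks down fibrin and parts of the extracellular matrix. Urokinase, the product of PLAU, acts mainly at the cell surface bound to its receptor PLAUR, whereas tissue plasminogen activator, the product of PLAT, acts mainly on fibrin. Serpins stop these proteases by binding them in a complex that does not come apart. Tissue factor, the product of F3, starts the opposing process of coagulation, and TFPI and TFPI2 are Kunitz-type inhibitors, of which TFPI blocks tissue factor with its bound protease and TFPI2 also blocks plasmin.

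Array medians were 21.7 to 24.4 for the 10A/143B arrays, against 20.4 to 21.4 for the 468/143B arrays. On both cybrids' arrays replicates 2 and 3 were near duplicates: over the 8172 brighter probe sets (mean log2 above 8) they differed with SDs of 0.079 (10A/143B) and 0.0919 (468/143B), and from replicate 1 each differed with SDs of 0.263 to 0.282. Each call below was therefore also tested with replicates 2 and 3 averaged to 1 sample, which left 2 samples per group. For ACTB the 3′ probe set over the 5′ one gave 1.59 to 1.92 on 10A/143B arrays, against 1.18 to 1.67 on 468/143B arrays, and for GAPDH 0.933 to 1.01, against 0.966 to 1.07. Each marker was read by its brightest probe set. Over all 19775 genes read in this way, 19.3% were higher and 15.2% lower in 10A/143B. Of 7 markers of osteosarcoma and osteoblasts, 0 were higher and 2 lower in 10A/143B (0 and 1 averaged), with summed intensities of 10293 to 11105 in 10A/143B and 10778 to 12099 in 468/143B cybrids. VIM, the mesenchymal filament that 143B is known to make, had 8192 to 9027 on 10A/143B arrays, against 7804 to 9027 on 468/143B arrays, while SPARC, a matrix protein of bone, was lower by 0.66 ± 0.06 and RUNX2, a factor of osteoblasts, by 0.23 ± 0.07. Of 5 markers of smooth muscle and fibroblasts, 0 were higher and 4 lower in 10A/143B (0 and 3 averaged), with a median of -1.22 and summed intensities of 391 to 769 in 10A/143B and 1262 to 1504 in 468/143B cybrids. MYL9 (-2.28), ACTA2 (-1.48), PDGFRB (-1.22) and TAGLN (-0.96) were the 4, and CNN1 was dim in both. In these bulk samples of cultured cybrids, fewer cells that make a marker and less of its RNA per cell cannot be told apart. The part of these markers in the results that follow was not tested. Of 8 markers of MCF10A 3 were measured and 0 were called: KRT5 stood at the array's lowest value of 1 on every 10A/143B array and at 1 to 2.07 on those of the 468/143B cybrids, KRT14 had 11.6 to 21.7, against 5.06 to 15.5, and DSG3 had 26.7 to 49.5, against 28.1 to 42.5. EPCAM, an epithelial adhesion gene of the list that follows, had 53.1 to 58.9, against 32.9 to 40.2. It was not called (0.43 ± 0.16, adjusted p = 0.0818). Of 9 markers of epithelium in general and of MDA-MB-468, 0 were higher and 3 lower in 10A/143B (0 and 2 averaged). These 3 were KRT8 (-1.05), KRT19 (-0.67, dim in both) and KRT18 (-0.34). The list's summed intensities were 5027 to 5514 in 10A/143B and 6448 to 7026 in 468/143B cybrids, nearly all of it KRT18. All summed intensities here add probe sets that are not on 1 scale, and are descriptions only.

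Upstream sequence is given for 3 members with called probe sets: both of PLAU were higher in 10A/143B, 2 of the 3 of PLAUR were lower, and 1 of the 2 of SERPINE2 was lower. Each run is the 250 bases before a RefSeq transcription start of GRCh38.p14, 5′ to 3′ on the gene's own strand. Capitals mark matches to TGANTCA, a loose form of the core site of AP-1 in which N is any base, and to GGGCGG, the GC box that Sp1 binds. PLAU and SERPINE2 each have a further start in the table, and the window with more matches is shown.
PLAU (chr10:73910882-73911131, plus strand): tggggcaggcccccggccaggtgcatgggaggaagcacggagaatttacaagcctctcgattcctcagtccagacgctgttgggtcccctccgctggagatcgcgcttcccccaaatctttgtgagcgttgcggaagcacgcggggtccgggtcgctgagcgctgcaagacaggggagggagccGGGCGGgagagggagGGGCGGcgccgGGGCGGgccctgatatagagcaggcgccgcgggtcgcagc
PLAUR (chr19:43670170-43670419, minus strand): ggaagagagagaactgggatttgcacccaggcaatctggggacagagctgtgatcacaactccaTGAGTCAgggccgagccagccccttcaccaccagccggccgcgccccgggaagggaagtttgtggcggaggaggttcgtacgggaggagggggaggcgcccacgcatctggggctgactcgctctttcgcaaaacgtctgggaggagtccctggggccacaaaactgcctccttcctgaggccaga
SERPINE2 (chr2:224038641-224038890, minus strand): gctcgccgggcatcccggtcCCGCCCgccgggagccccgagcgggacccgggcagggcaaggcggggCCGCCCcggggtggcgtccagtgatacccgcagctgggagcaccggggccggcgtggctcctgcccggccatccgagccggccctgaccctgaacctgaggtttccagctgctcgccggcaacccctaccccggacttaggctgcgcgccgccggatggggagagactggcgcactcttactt

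Motifs were searched on both strands of 11 windows of the member genes, for 9 genes with SERPINB2 among them. Member windows on chromosome 8, where PLAT lies, were left out of the search, while the windows over all genes were not restricted in this way. Sequence further upstream than these 250 bases, for PLAU as for the others, was not searched. The PLAU window shown held 3 GC boxes and no AP-1 core, and its other start's window held none of the motifs searched. PLAUR's held 1 AP-1 core, 186 to 180 bases before the start, and that of SERPINE2 shown held 2 GC boxes on the opposite strand. TGANTCA was found for 6 of the 9 genes (ANXA2, F3, PLAUR, SERPINB2, SERPINB8 and TFPI2), in 6 of 11 windows, against 6.57% of 35116 windows of the same length over all genes. For SERPINB2 and TFPI2 the only match was TGAATCA, while the other genes had TGAGTCA among their matches. TATAAA was found in 4 of the 11 windows (10.7% of all windows), GGGCGG in 6 (42.6%) and CCGGAA, a core of ETS sites, in 1 (14.5%). In ANXA2 the 3 GC boxes overlap one another by 1 base, and in SERPINB8 the TATAAA matches on opposite strands overlap. These matches are letters in a window and were not tested against the expression values.

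The members did not move in 1 direction. PLAU was about 2-fold higher and PLAT 4.65-fold lower in 10A/143B, PLAUR was lower on 2 of its 3 probe sets, SERPINE2 was lower on its brighter probe set, and TFPI was higher on 1 of 5 probe sets. Of the 22 probe sets, 5 were higher and 4 lower in 10A/143B at an adjusted p under 0.05 (limma, adjusted over all 41091 probe sets), and 13 did not pass. That is 40.9% called, against 31.0% of all probe sets (18.6% higher and 12.4% lower). With replicates 2 and 3 averaged, 3 were higher and 3 lower, 27.3% of the members against 17.9% of all probe sets (11.7% higher and 6.14% lower). The median log2 difference over the 22 was 0.10, and that over all probe sets was 0.0033. After the arrays were centred on their medians, which moved the median of all probe sets by -0.10, 3 members were higher and 4 lower, and 50% of all calls were higher in 10A/143B in place of 60.1%. The count of higher members rested on ANXA2: without replicate 2 or replicate 3 of either cybrid it was 3, because both ANXA2 calls were lost. The arrays of the cybrids did not overlap for 12 of the 22 probe sets (7 higher, 5 lower), or 54.5%, against 42.8% of all probe sets (24.3% higher and 18.5% lower).

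**Figure D1:**
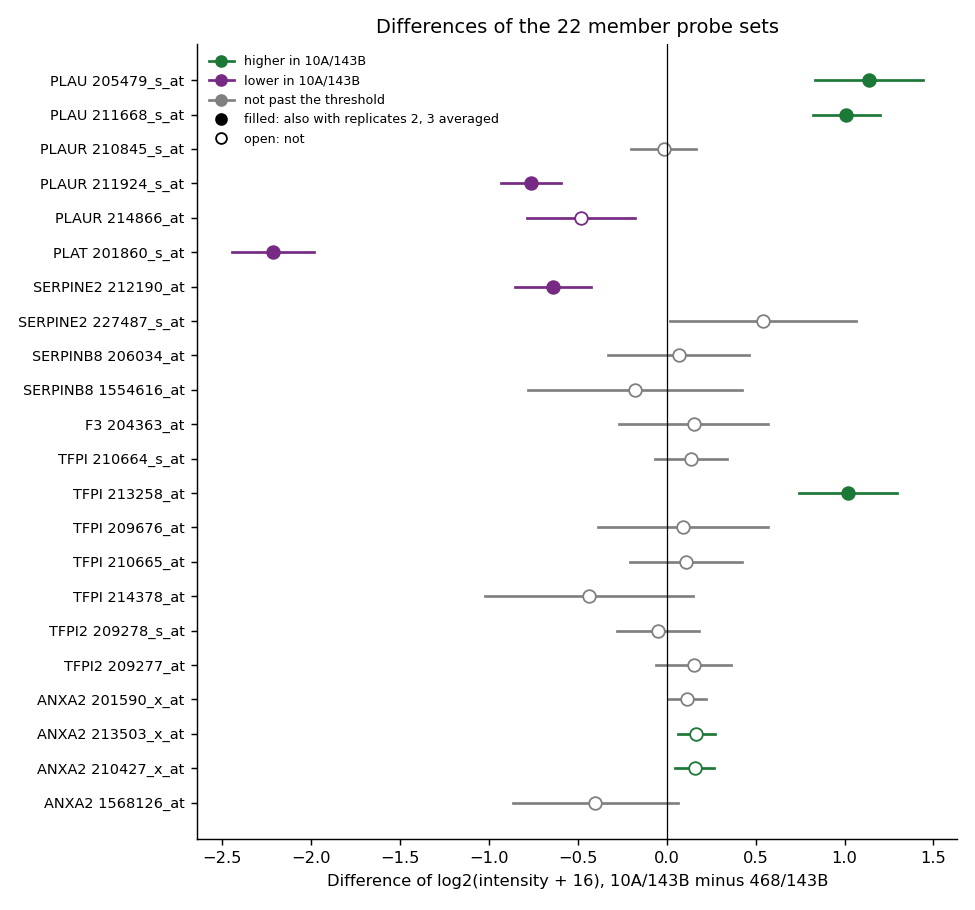
Difference of log2(intensity + 16), 10A/143B minus 468/143B, of the 22 member probe sets, with bars for the 95% confidence interval of the limma fit to 6 arrays. Green is higher and purple lower in 10A/143B at an adjusted p under 0.05, and filled points also passed with replicates 2 and 3 averaged. PLAT lies lowest at -2.22 and PLAU 205479_s_at highest at 1.14.

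Urokinase mRNA was higher in 10A/143B on both PLAU probe sets. PLAU 205479_s_at had intensities of 3191, 4482 and 4513 in replicates 1, 2 and 3 of 10A/143B, against 1663, 1872 and 1924 in those of the 468/143B cybrids. Every 10A/143B array lay above every 468/143B array, and replicate 1 was the lowest of both groups. On the log2(intensity + 16) scale, on which all differences here are given and which understates changes of dim probe sets, it was higher by 1.14 ± 0.13 (SE, n = 3 per group, adjusted p = 2.97e-04). This is 2.20-fold, with a 95% interval of 0.83 to 1.44 for the log2 difference. PLAU 211668_s_at had 2647, 3083 and 3236 in 10A/143B, against 1541, 1418 and 1458 in 468/143B cybrids, and was higher by 1.01 ± 0.08 (2.01-fold, adjusted p = 4.97e-05). The groups were again apart on every array. With replicates 2 and 3 averaged the adjusted p was 0.00536 and 0.00269. Within replicate numbers, the replicate 1 arrays differed by 0.93 and 0.77 and those of replicates 2 and 3 by 1.24 and 1.13, so that the smaller difference came from the replicate 1 pair on both probe sets. PLAU passed under every alternative that tested it, with log2 differences from 1.03 to 1.30 for the first probe set and from 0.91 to 1.13 for the second.

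PLAT, the tissue-type activator, moved the other way and had the largest difference of the 22 probe sets. Its only probe set, 201860_s_at, had intensities of 83.9, 102 and 87.4 in 10A/143B, against 491, 468 and 481 in 468/143B cybrids. The lowest 468/143B array was far above the highest 10A/143B array. PLAT was lower by 2.22 ± 0.10 on the log2 scale (adjusted p = 6.75e-06, 8.45e-04 averaged), with a 95% interval of -2.45 to -1.99. The difference was -2.34 on the replicate 1 arrays and -2.15 on replicates 2 and 3. Over all alternatives it ran from -2.39 to -1.81, the smallest with an offset of 64. PLAU and PLAT were not summed to a total of activators, since levels of different probe sets are not on 1 scale.

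The urokinase receptor gene PLAUR gave different answers on its 3 probe sets. PLAUR 211924_s_at had 676, 613 and 657 in 10A/143B, against 1113, 1184 and 1046 in 468/143B cybrids. The groups did not overlap, and it was lower by 0.77 ± 0.07 in 10A/143B (1.70-fold, adjusted p = 1.11e-04, 0.00452 averaged). PLAUR 214866_at had 153, 115 and 123 in 10A/143B, against 197, 169 and 198 in 468/143B cybrids. It too lay lower on every 10A/143B array, by 0.48 ± 0.13 (adjusted p = 0.0244), but did not pass with replicates 2 and 3 averaged (adjusted p = 0.178) or without replicate 2 or 3 of 10A/143B or replicate 1 or 3 of the 468/143B cybrids (adjusted p up to 0.10). PLAUR 210845_s_at, the brightest, had 1520, 1409 and 1541 in 10A/143B, against 1663, 1479 and 1389 in 468/143B cybrids. These values overlap, with a difference of -0.02 ± 0.08 (adjusted p = 0.906) and a 95% interval of -0.20 to 0.17. That interval does not reach the difference of 211924_s_at. The files do not say which transcripts of PLAUR each probe set matches.

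ANXA2, a calcium-dependent phospholipid-binding protein that with S100A10 gathers plasminogen and tissue plasminogen activator at the cell surface, was bright on 3 probe sets and differed little. ANXA2 213503_x_at had 7332, 7082 and 7383 in 10A/143B, against 6562, 6472 and 6383 in 468/143B cybrids. The groups did not overlap, and the difference was 0.17 ± 0.05 (1.12-fold, adjusted p = 0.0249). That of 210427_x_at was 0.16 ± 0.05 (adjusted p = 0.0369), and 201590_x_at, at 0.11 ± 0.05, did not pass (adjusted p = 0.106). Neither call held with replicates 2 and 3 averaged (adjusted p = 0.267 and 0.277), with median centring (0.06 and 0.05 on the log2 scale, adjusted p = 0.476 and 0.574) or with quantile normalization (adjusted p = 0.0547 and 0.119). The suffix of these 3 marks probe sets that may also match other sequences. The much dimmer 1568126_at had 43.7, 39.9 and 35.3 in 10A/143B, against 75.6, 44.3 and 55.3 in 468/143B cybrids, and did not pass (-0.40 ± 0.20, adjusted p = 0.185).

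**Figure D2:**
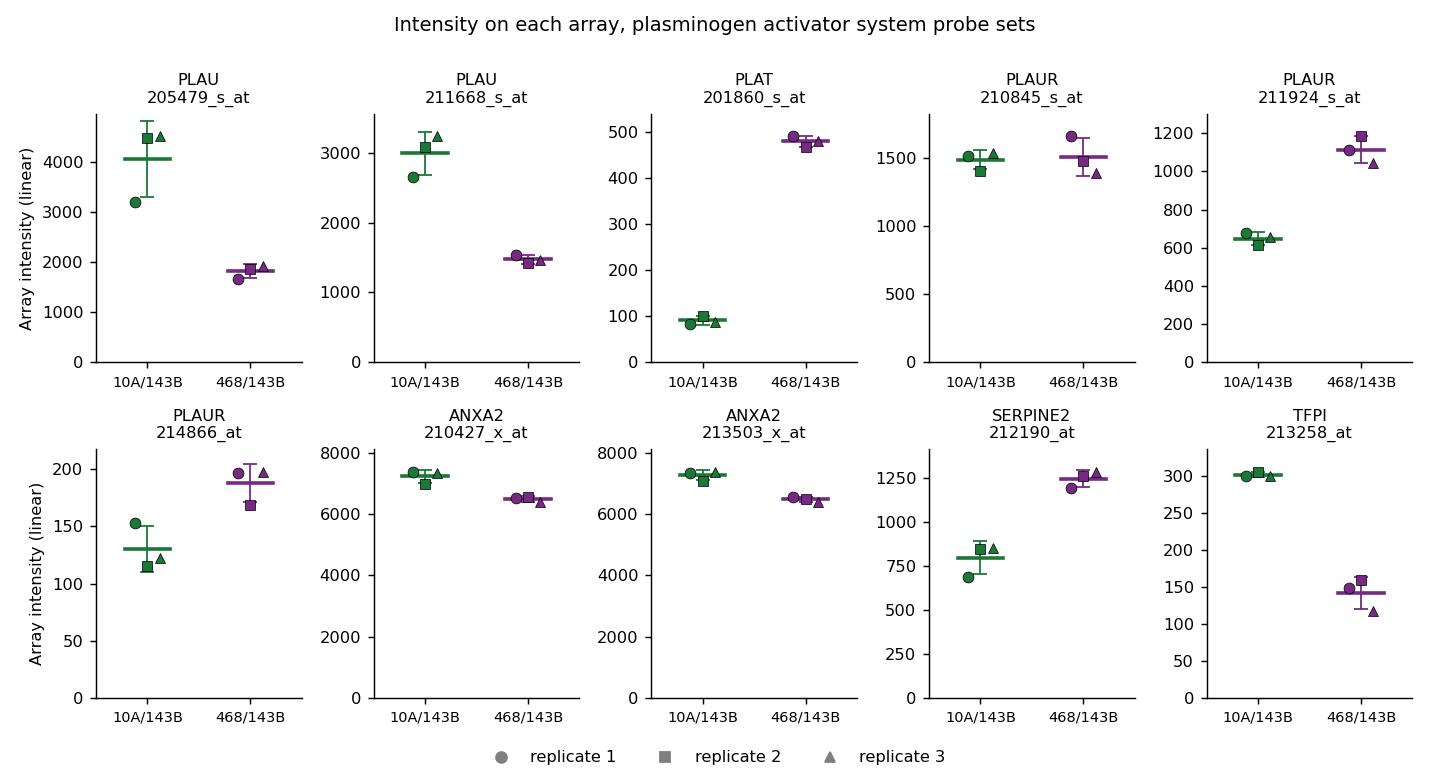
Linear array intensity of the 9 called member probe sets and of PLAUR 210845_s_at, each array a point shaped by replicate number (10A/143B green, 468/143B purple), with the mean as a line and bars for ± SD of 3 arrays. Each panel has its own axis from 0, and levels are not comparable between panels. The groups are apart in every panel but that of PLAUR 210845_s_at, where 1409 to 1541 in 10A/143B lies within 1389 to 1663 in 468/143B cybrids.

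Among the inhibitors, SERPINE2 was lower in 10A/143B on its bright probe set. SERPINE2 encodes protease nexin-1, a serpin that blocks thrombin, urokinase and tissue plasminogen activator. On 212190_at it had 690, 849 and 855 in 10A/143B, against 1193, 1261 and 1287 in 468/143B cybrids. No arrays overlapped, and SERPINE2 was lower by 0.64 ± 0.09 (1.56-fold, adjusted p = 9.36e-04, 0.0139 averaged), passing under all 18 alternatives that tested it. Its other probe set, 227487_s_at, had 5.39, 21.4 and 21.0 in 10A/143B, against 4.76, 4.86 and 6.19 in 468/143B cybrids. This probe set lay in both groups below 29.5, the intensity of a probe set at the median level, and replicate 1 of 10A/143B lay with the 468/143B arrays. It did not pass (0.54 ± 0.23, adjusted p = 0.114), but was called higher without that array (0.81, adjusted p = 0.00423). The direction of SERPINE2 therefore rests on the brighter probe set.

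SERPINB8, an intracellular serpin known to inhibit furin, did not pass on either probe set. SERPINB8 206034_at had 41.6, 45.3 and 50.2 in 10A/143B, against 48.8, 42.8 and 37.3 in 468/143B cybrids (difference 0.07 ± 0.17, adjusted p = 0.818, 95% interval -0.33 to 0.46). On 1554616_at it had 38.6, 34.1 and 24.8, against 47.8, 50.9 and 21.9 in 468/143B cybrids (-0.18 ± 0.26, adjusted p = 0.671, 95% interval -0.78 to 0.42). The groups overlapped on both, and these intervals leave room for a difference of either sign.

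TFPI had 5 probe sets, of which 2 kept the cybrids apart on every array and 1 was called. TFPI 213258_at had 300.2, 307 and 300.2 in 10A/143B, against 149, 160 and 118 in 468/143B cybrids. It was higher on every 10A/143B array, by 1.02 ± 0.12 (2.03-fold, adjusted p = 3.18e-04, 0.00584 averaged), and passed under all 17 alternatives that tested it. TFPI 210664_s_at had 286, 263 and 263 in 10A/143B, against 256, 246 and 234 in 468/143B cybrids, and although its arrays did not overlap, the difference of 0.13 ± 0.09 did not pass (adjusted p = 0.308, 95% interval -0.07 to 0.34). TFPI 209676_at (0.09 ± 0.21) and 210665_at (0.11 ± 0.14) and the dim 214378_at (-0.44 ± 0.25) did not pass either (adjusted p = 0.795, 0.626 and 0.251), and their arrays overlapped. The files do not show which transcripts of TFPI the probe sets match.

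TFPI2 and F3 did not pass. TFPI2 209278_s_at had 704, 648 and 662 in 10A/143B, against 798, 685 and 613 in 468/143B cybrids, a difference of -0.05 ± 0.10 (adjusted p = 0.769, 95% interval -0.28 to 0.18). Its other probe set, 209277_at, had 468, 516 and 498, against 495, 407 and 431 in 468/143B cybrids (0.15 ± 0.09, adjusted p = 0.272). On 209277_at the replicate 1 arrays differed by -0.08 and replicates 2 and 3 by 0.27, and it was called higher from replicates 2 and 3 alone (adjusted p = 0.00718). F3 lay in both groups below the median level of all probe sets, with 23.1, 17.6 and 20.3 in 10A/143B, against 16.8, 21.3 and 12.5 in 468/143B cybrids (0.15 ± 0.18, adjusted p = 0.599).

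All 9 called probe sets had the same sign on the replicate 1 arrays as on replicates 2 and 3, as had 17 of the 22 in all. For the 9 this was fixed in advance, since their groups did not overlap on any array, so it is no further support for the calls. The share of all probe sets with the same sign was not counted. With the replicate number as a block, which takes same-numbered arrays as pairs, the same counts of 5 higher and 4 lower were called.

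**Figure D3:**
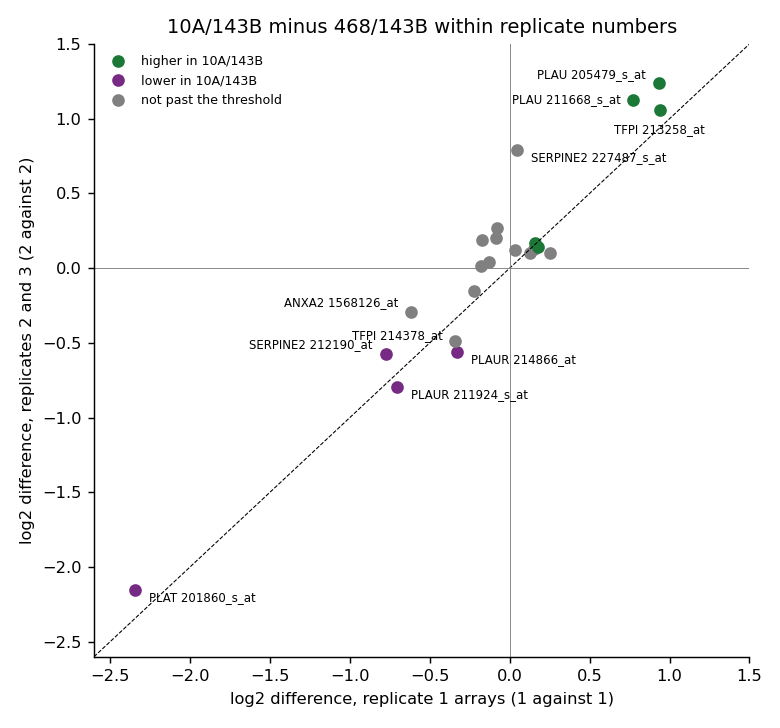
Log2 difference, 10A/143B minus 468/143B, of each of the 22 member probe sets on the replicate 1 arrays (x axis, 1 array against 1) and on replicates 2 and 3 (y axis, 2 against 2), with the line of equal values dashed and colours as called on 6 arrays. The 9 called probe sets have the same sign on both axes, as they must because their groups do not overlap, with PLAT at -2.34 and -2.15. SERPINE2 227487_s_at is at 0.04 and 0.79.

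The chromosomal neighbours, 5 measured genes on either side, were read for the 3 members that were called on their brightest probe set. Around PLAU on chromosome 10 their median log2 difference was 0.13, with 2 called higher and 2 lower of 10 and a range of -0.44 to 1.49, which reaches above PLAU itself. Around PLAT on chromosome 8 it was 0.04, with 3 higher and 2 lower and a range of -0.67 to 1.25. Around SERPINE2 on chromosome 2 it was 0.17, with 4 higher and 0 lower and a range of -0.08 to 1.88. Of all 19775 genes read by their brightest probe set, 19.3% were called higher and 15.2% lower. The neighbour values are descriptions of single stretches and were not tested.

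Other genes of plasminogen activation, coagulation and their surroundings were read from 6 lists of 101 genes, 94 of them measured, each by its brightest probe set. Of the 94, 10 were higher and 29 lower in 10A/143B, against 19.3% higher and 15.2% lower of all 19775 genes read in the same way. With replicates 2 and 3 averaged 5 were higher and 17 lower. The averaged share was counted only over all probe sets, at 11.7% higher and 6.14% lower. These shares also stand beside the counts of each list below. The lists were chosen with earlier results of these data known, so their counts are descriptions and not tests of a pathway. Among 19 measured partners of the plasminogen system, 2 were higher and 6 lower (0 and 2 averaged), with a median of -0.26, against -0.02 over all genes. VTN of that list was not analysed here. KRT8, a keratin that can bind plasminogen at the cell surface, had 164, 231 and 223 in 10A/143B, against 407, 449 and 461 in 468/143B cybrids, and was lower by 1.05 ± 0.13 (adjusted p = 4.38e-04). F12, coagulation factor XII, which can also activate plasminogen, was lower by 0.85 ± 0.08 (adjusted p = 7.88e-05), while its other probe set, at -0.14, was not called. LRP1, the endocytic receptor that clears activator and serpin complexes, averaged 15.6 in 10A/143B and 39.8 in 468/143B cybrids and passed narrowly (-0.82 ± 0.27, adjusted p = 0.0492), but neither averaged (0.0979) nor with the replicate number as a block (0.0657), and 0 of its 3 other probe sets were called. SERPINI1, neuroserpin, an inhibitor of tissue plasminogen activator, was higher by 0.99 ± 0.18, and SERPINA5, the protein C inhibitor, which also blocks urokinase, was dim and lower by 0.69 ± 0.22 (adjusted p = 0.00352 and 0.0415, 0.0579 and 0.127 averaged). S100A10, the partner of ANXA2, was lower by 0.44 ± 0.10 on its brighter probe set (adjusted p = 0.00968, 0.0693 averaged), while its other probe set was called the opposite way (1.48), so it has no settled direction. PLGRKT, a transmembrane plasminogen receptor, did not pass (-0.33 ± 0.18, adjusted p = 0.231), although it did with the replicate number as a block (adjusted p = 0.0131).

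Of 26 measured coagulation genes, 4 were higher and 7 lower in 10A/143B (4 and 4 averaged), with a median of -0.13. The largest were higher: SERPIND1, heparin cofactor II, an inhibitor of thrombin, by 1.63 ± 0.15 (adjusted p = 1e-04), and PROS1, protein S, a cofactor of activated protein C and of TFPI, by 1.61 ± 0.13 (adjusted p = 4.46e-05). PROS1 averaged 208 in 10A/143B and 57.7 in 468/143B cybrids. LMAN1, which carries factors V and VIII out of the endoplasmic reticulum, was higher by 1.00 ± 0.10, and GGCX, the carboxylase that activates vitamin K-dependent factors, was lower by 1.11 ± 0.10 (adjusted p = 1.42e-04 and 9.8e-05). Of the other probe sets, 1 of 2 of LMAN1 was called higher, and 1 of 4 of GGCX was called lower, with those 4 between -1.25 and 0.30. SERPINC1, antithrombin, was dim in both groups, at 1.04 and 14.4 (-0.81 ± 0.17, adjusted p = 0.00634).

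Among 18 measured genes whose products plasmin or urokinase can cleave or activate, 3 were higher and 5 lower (1 and 4 averaged), with a median of 0.03. FN1, fibronectin, averaged 159 in 10A/143B and 859 in 468/143B cybrids, lower by 2.32 ± 0.07, and 4 of its 6 other probe sets were called lower too. THBS1, thrombospondin 1, was lower by 2.06 ± 0.13, with 4 of 6 others, and BDNF, a neurotrophin made as a precursor, by 1.98 ± 0.16, without its other probe set (0.34). TGFB1, a latent growth factor, was lower by 1.61 ± 0.20, while its other probe set, at -0.13, did not pass. MMP10, a matrix metalloproteinase, was higher by 1.41 ± 0.19 (adjusted p = 5.99e-04).

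Of the 10 measured other clade B serpins, 9 were dim in both groups, and SERPINB1, an inhibitor of neutrophil proteases, was the 1 called (-0.90 ± 0.10, adjusted p = 1.83e-04), while its other probe sets lay between 0.24 and 0.58 and were not called. Of 10 measured other annexins, 0 were higher and 5 lower in 10A/143B (0 and 2 averaged), with a median of -0.41. ANXA6 was lower by 1.02 ± 0.10 and ANXA1 by 0.50 ± 0.06 (adjusted p = 1.52e-04 and 2.37e-04), and both held averaged, but the other probe set of each, at 0.23 for ANXA6 and 0.015 for ANXA1, was not called. ANXA4, ANXA5 and ANXA11 were lower by 0.52, 0.32 and 0.24 and did not hold averaged, and a further probe set of ANXA11 was called higher. These annexins are calcium-dependent membrane-binding proteins like ANXA2, whose bright probe sets gave 0.11 to 0.17.

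Factors of the AP-1 and ETS families, which are known to bind the upstream enhancer of PLAU, were measured for all 11 listed genes, of which 1 was higher and 5 lower in 10A/143B (0 and 4 averaged), with a median of -0.45. ETS2 averaged 128 in 10A/143B and 677 in 468/143B cybrids and was lower by 2.27 ± 0.09 (adjusted p = 6.0e-06), with 1 of its 2 other probe sets also called lower. JUNB was lower by 0.86 ± 0.11 and FOSL1 by 0.75 ± 0.09 (adjusted p = 5.20e-04 and 4.35e-04), and both held averaged. ETV4 (-0.58 ± 0.15) and FOS, the 1 that was higher (1.06 ± 0.27), did not hold (adjusted p = 0.0195 and 0.0173, 0.088 and 0.122 averaged).

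**Figure D4:**
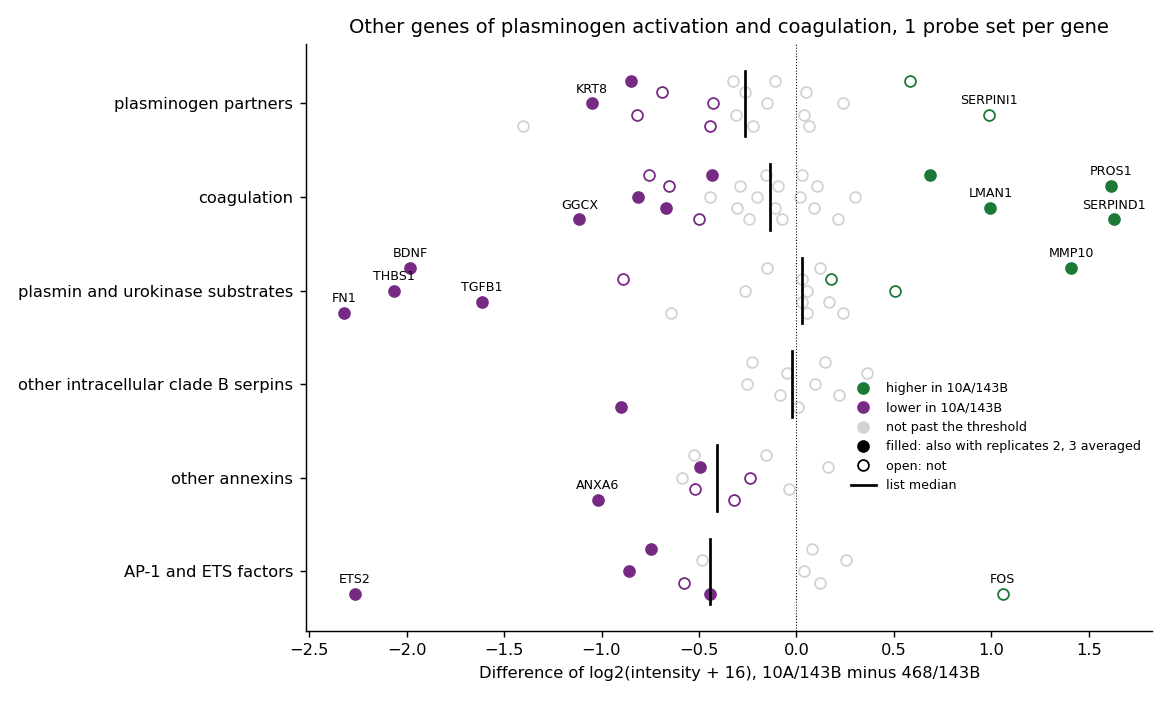
Difference of log2(intensity + 16), 10A/143B minus 468/143B, of the measured genes of the 6 lists, each by its brightest probe set, with the vertical offset within a list for legibility only. Green is higher and purple lower in 10A/143B at an adjusted p under 0.05, filled points also passed with replicates 2 and 3 averaged, and black lines are list medians. FN1 lies lowest at -2.32 and SERPIND1 highest at 1.63.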

How the data were processed

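The authors' deposited table holds linear array intensities, 1 per probe set and array. How probe signals were summarised, corrected for background and scaled is not given in the sources used here. No detection calls were used. The members and lists were chosen with earlier results of these data known. Source names gave each array's group and replicate number. Probe sets took their genes from the platform table, with symbols updated through Entrez identifiers to RefSeq. Those with several symbols or none and 62 control probe sets were left out. Intensities were used without further scaling as log2(intensity + 16) and fitted in R 4.3.3 with limma 3.58.1 (eBayes on an intensity trend), as 10A/143B minus 468/143B, with Benjamini-Hochberg adjustment over 41091 probe sets. The fit was tested on simulated data. Every adjusted p is limma's.

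Each list gene was read from its probe set with the highest mean. Named were all members, up to 5 called genes of each list by size of difference, and S100A10, PLGRKT, LRP1 and VTN. Same-numbered arrays deviated together across the cybrids (r = 0.27, 0.213 and 0.213 for numbers 1, 2 and 3 over 8172 probe sets). Arrays of different numbers were not compared, and replicates 2 and 3 were near duplicates. These values can therefore show that replicate 1 stood apart in a shared way, but not that 2 pairs with 2 and 3 with 3. The replicate block took the numbers as pairs, which the labels do not state. Upstream sequences came from RefSeq (GRCh38.p14), a build the array files do not name. Alternatives covered offset, scaling, dim and cross-hybridising probe sets, trend, array weights, replicate handling and each array left out. The number of arrays limits the precision.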

Additional observations from a re-analysis of the deposited data

How the results depend on the processing

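Over the 41091 probe sets, 12744 were called, 7341 with replicates 2 and 3 averaged, 7042 with 1 probe set per gene and 7958 when those with suffix _x_at or _s_at were left out, where fewer were tested. The count of members higher in 10A/143B (5) was 3 with median centring, quantile normalization, no intensity trend or replicates averaged, 8 with array weights or replicates 2 and 3 only, and 1 without _x_at and _s_at probe sets or with 1 probe set per gene. It ran from 3 to 7 with 1 array left out. The count lower (4) was 2 under the last pair of settings, which tested 11 and 9 of the 22 member probe sets. Of the pathway list genes, 5 were higher averaged (6 to 11 with 1 array left out), 17 were lower averaged and 16 without _x_at and _s_at probe sets. With the replicate block 5 members were higher and 4 lower, 11 list genes higher and 31 lower, and 13797 probe sets were called in all, so pairing by number changed no member's call. Of the list genes, PLGRKT, ST14, MCFD2 and MMP2 passed with the block but not without it (adjusted p = 0.0131, 0.0143, 0.0180 and 0.0224) and LRP1 did not (0.0657). Members that did not pass changed sign as follows. PLAUR 210845_s_at was 0.017 with array weights, 0.040 on replicates 2 and 3 only and -0.074 to 0.054 with 1 array left out. SERPINB8 206034_at was -0.036 and -0.085 with median centring and quantile normalization, and -0.0035 to 0.14 with 1 array left out. TFPI 209676_at was -0.012 and -0.096 under the same scalings and -0.077 to 0.29 with 1 array left out, and 210665_at was -0.076 with quantile normalization. TFPI2 209278_s_at was 0.015 on replicates 2 and 3 only and -0.14 to 0.049 with 1 array left out. The cause of these changes was not tested. No called member changed sign under any alternative run. Apart from median centring and quantile normalization this was fixed in advance, since the groups of the called members did not overlap.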

Other observations

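A further probe set, paired with both ANXA2 and SNU13 and therefore not a member, had intensities of 2721, 2937 and 2998 in replicates 1, 2 and 3 of 10A/143B, against 3692, 3929 and 3641 in those of the 468/143B cybrids. It lay lower on every 10A/143B array, unlike the 3 bright probe sets of ANXA2 alone. It was not in the fit, and the files do not show which of the genes gave its signal.

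ST14, the membrane protease matriptase, which can activate urokinase, had 5.58, 18.4 and 9.45 in 10A/143B, against 15.2, 83.3 and 96.3 in 468/143B cybrids. Replicate 1 of the 468/143B cybrids lay among the 10A/143B arrays, and the difference of -1.40 ± 0.46 did not pass (adjusted p = 0.0518, and 0.209 with replicates 2 and 3 averaged), although it did with the replicate block (adjusted p = 0.0143). ST14 was singled out after its values were seen.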
